A study of Mus musculus with 30 samples.

Results

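The 10 genes described here are known from macrophages of the splenic red pulp and from the complement protein C1q: *Mrc1*, *Hmox1*, *C1qa*, *C1qb*, *C1qc*, *Vcam1*, *Spic*, *Slc40a1*, *Cd163* and *Cd5l*. They were taken by symbol from 19938 genes measured on Affymetrix Mouse Gene ST arrays, as a list with no threshold on a measured value that was drawn up with earlier results of these data known, and each was covered by 1 probe set that carried no other symbol. Total RNA came from the spleen and lymph node of 15 mice, 1 array per tissue and mouse (30 arrays). The first state was lymphoma, in 6 heterozygous Tg26 mice, whose transgene is the HIV-1 provirus pNL4-3 with part of gag-pol removed, so that no infectious virus is made. The next was Tg26 mice with the same transgene and no symptoms (6 mice), and the last was the background strain FVB/N without it (3 mice). The Tg26 mice were on the FVB/N background. Ages ran from 5 to 12 months over the series, and about 15% of Tg26 mice develop lymphoma. The colony was bred from heterozygotes with skin lesions. By the labels, mice 1 to 3 of each state were batch A, and mice 4 to 6 of the lymphoma and asymptomatic states were batch B, which held no FVB/N mouse.

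Red pulp macrophages take up aged red blood cells and recycle their iron. Heme oxygenase 1 (*Hmox1*) opens the heme ring, ferroportin (*Slc40a1*) exports the freed iron, CD163 takes up haptoglobin-bound hemoglobin, and the transcription factor Spi-C (*Spic*) is needed for these cells to form. VCAM1 and the mannose receptor CD206 (*Mrc1*) mark them on the surface, although VCAM1 is also made by endothelium and lymphoid stroma and CD206 by other tissue macrophages and some endothelium. CD5L is a protein secreted by tissue macrophages. The A, B and C chains of C1q, made largely by macrophages and dendritic cells, assemble into the molecule that starts the classical complement pathway and tags dying cells for uptake. In whole tissue, fewer cells of a type and less RNA per cell cannot be told apart.

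*C1qb*, *C1qc* and *C1qa* are consecutive genes in RefSeq (GRCm38.p6). The bases before the start of *C1qb* and *C1qc* are shown because the C1q genes are described together below, and those of *Spic* because its product binds the motif searched. Each line gives the 250 bases up to the start, 5′ to 3′ on the gene's own strand, from RefSeq (GRCm38.p6). Capitals mark GAGGAA or its reverse complement, the ETS core bound by PU.1 and Spi-C. All 3 genes lie on the minus strand, with the *C1qb* window at chr4:136886201-136886450, the *C1qc* window at chr4:136892915-136893164 and the *Spic* window at chr10:88683024-88683273.
C1qb: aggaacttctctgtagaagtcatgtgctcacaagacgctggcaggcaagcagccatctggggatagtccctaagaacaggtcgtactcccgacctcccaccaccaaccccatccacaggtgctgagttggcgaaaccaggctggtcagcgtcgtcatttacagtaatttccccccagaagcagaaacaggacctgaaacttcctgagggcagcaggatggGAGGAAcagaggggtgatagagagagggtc
C1qc: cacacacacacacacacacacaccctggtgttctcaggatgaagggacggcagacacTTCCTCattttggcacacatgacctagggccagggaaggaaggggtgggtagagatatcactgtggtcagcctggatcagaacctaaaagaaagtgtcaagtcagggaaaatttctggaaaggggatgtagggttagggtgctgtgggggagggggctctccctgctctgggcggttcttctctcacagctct
Spic: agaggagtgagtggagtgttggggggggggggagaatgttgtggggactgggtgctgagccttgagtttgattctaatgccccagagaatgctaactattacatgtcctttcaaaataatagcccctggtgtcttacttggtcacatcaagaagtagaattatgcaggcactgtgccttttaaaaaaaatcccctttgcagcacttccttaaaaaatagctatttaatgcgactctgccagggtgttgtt
GAGGAA was searched on both strands, as was the composite of an ETS and an IRF site (GGAA, any pair of bases, then GAAA), which can share its GGAA with the first motif. *C1qb* held GAGGAA once, starting 30 bases before the start on the gene's strand. *C1qc* held it once, starting 193 bases before the start on the opposite strand, and the *Spic* window held none. Of the 6 members in the table (*Mrc1*, *C1qb*, *C1qc*, *Spic*, *Cd163* and *Cd5l*), 4 held GAGGAA, against 23.3% of 32851 promoter windows of this length. None of the 6 held the composite, against 2.3% of all windows. These are matches of letters and not measured binding.

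Some arrays stood apart. The endothelium list averaged 8.01 to 8.60 on the log2 scale in 7 nodes (asymptomatic mice 2 to 6, FVB/N mice 2 and 3), against 6.33 to 7.31 in the other nodes, and the stroma list 8.78 to 9.68, against 6.33 to 8.19. Erythroid markers were higher in spleen than in node in 13 of 15 mice. The exceptions were lymphoma mouse 4, with 6.19 in spleen and 7.22 in node, and asymptomatic mouse 6, with 7.69 in spleen and 9.48 in node. The exocrine pancreas list averaged 13.31 in the node of asymptomatic mouse 6 and 12.00 in that of asymptomatic mouse 5. Of the asymptomatic spleens, that of mouse 5 had 8.49 and that of mouse 4 had 7.40. For lymphoma mouse 4, the status code of the spleen array is the one that FVB/N arrays carry, although the title names lymphoma, and the array was analysed under its title. The spleens of asymptomatic mice 1 to 3 were closer to each other than most arrays of one group (SD of the difference over genes 0.165 to 0.182), as were those of FVB/N mice 2 and 3 (0.151), against 0.263 or more for the other pairs. The labels do not say whether each array was a separate extraction, so p-values may measure a partly technical spread.

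The members were not restricted to spleen. In FVB/N mice *Spic* averaged 7.74 ± 0.20 in spleen and 8.04 ± 0.87 in node (log2 level, SD, n = 3 each), and the ranges overlapped. The set is therefore named for where its genes are best known, and its levels here are those of whole tissue. An array gives no true zero, so absence of a marker cannot be read from it.

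Across the 6 groups, the highest group mean was that of asymptomatic spleens for 4 members (*Hmox1*, *Vcam1*, *Spic* and *Slc40a1*), asymptomatic nodes for 4 (*Mrc1* and the C1q genes) and lymphoma spleens for 2 (*Cd163* and *Cd5l*). The lowest was FVB/N spleen for 6 members, lymphoma node for 3 (*Spic*, *Slc40a1* and *Cd5l*) and FVB/N node for 1 (*Hmox1*). In that order of means, neighbouring groups overlapped except for 3 cases. Lymphoma nodes lay above FVB/N spleens without overlap for *Mrc1* and *C1qa*, and asymptomatic spleens lay above FVB/N nodes without overlap for *Cd5l*.

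**Figure D1:**
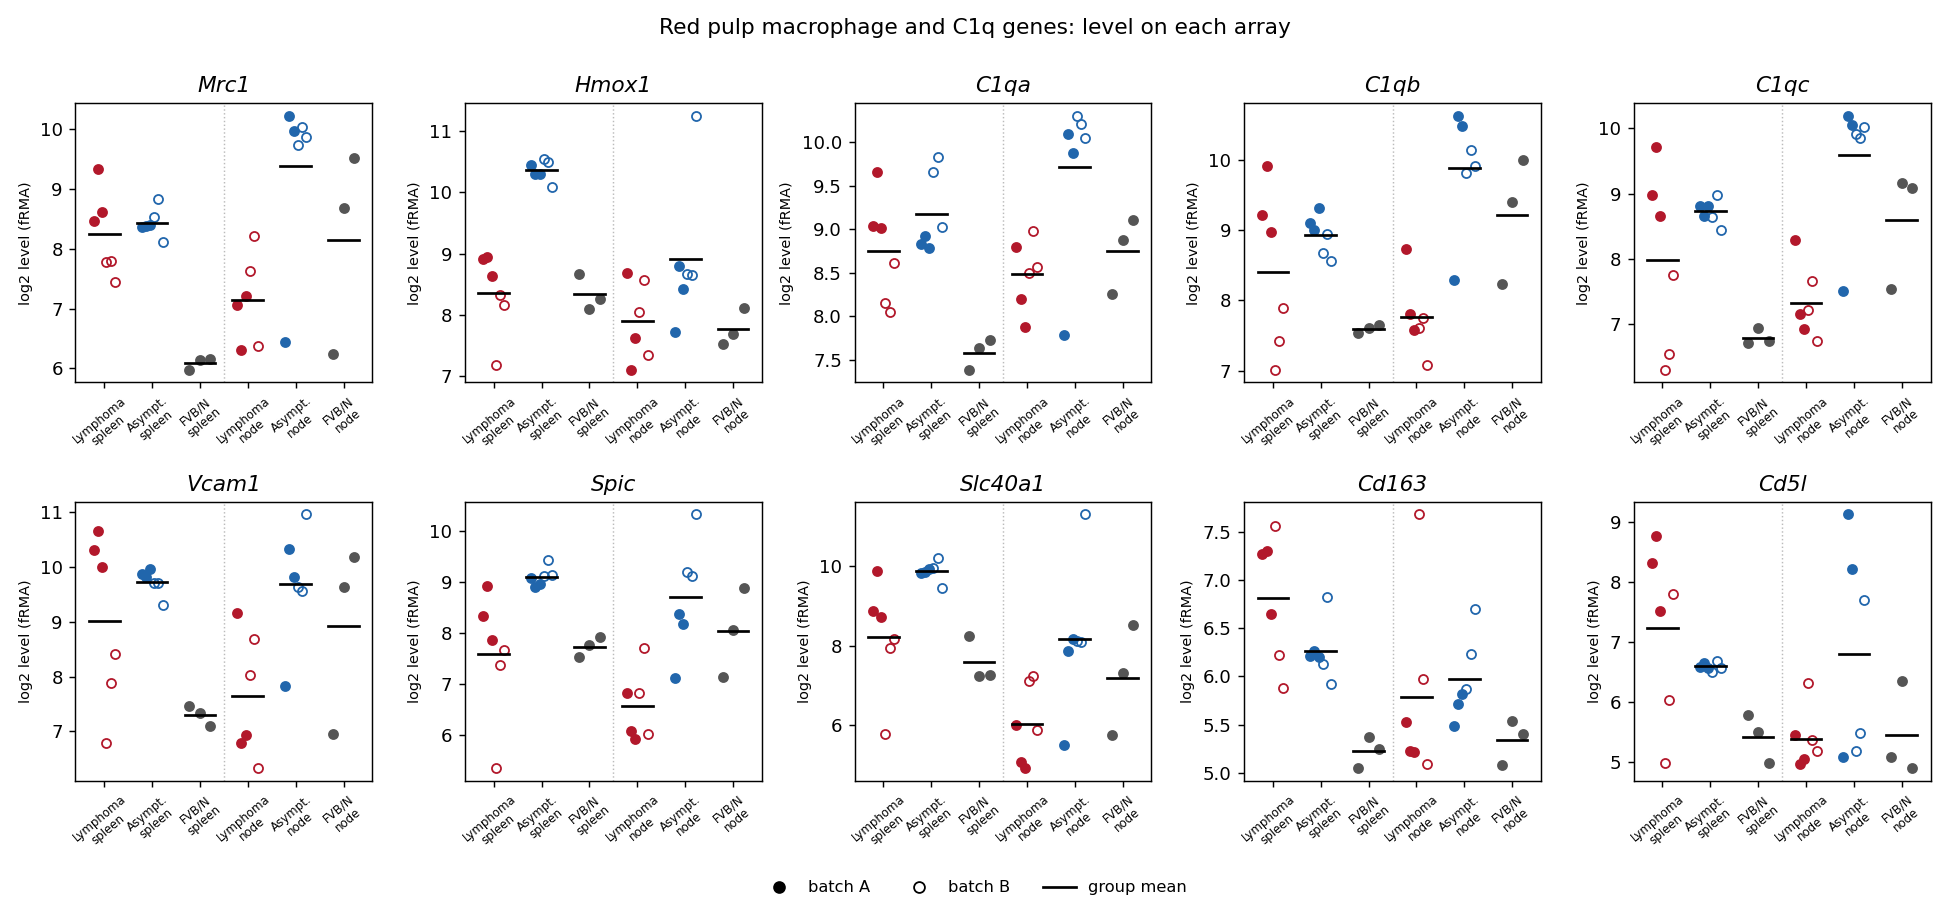
Log2 level of each of the 10 genes (vertical axis, 1 panel per gene) on every array, by group along the horizontal axis. Filled points are batch A, open points batch B, and bars are group means. In spleen, all asymptomatic arrays lie above all FVB/N arrays for all 10 genes, while lymphoma spleens are spread widely and 8 genes separate by batch there.

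The comparison of asymptomatic Tg26 with FVB/N spleens asks what goes with the transgene in mice without symptoms. Whether any of these mice would have developed lymphoma is not known. All 10 members were higher in every one of the 6 asymptomatic spleens than in any of the 3 FVB/N spleens, a pattern shown by 3.99% of all genes. Within batch A, 3 spleens against 3, 12.9% of all genes showed it. All FVB/N spleens were batch A, so there it had to hold for the 10 members and adds no support. In the limma fit over all 30 arrays with 6 surrogate variables (unmodelled axes of variation estimated from the data), 6 members had a Benjamini-Hochberg adjusted p under 0.05, all of them higher, against 0.306% of all genes called higher (61 genes). The median fitted difference was 1.72 log2 units for the members and 0.02 for all genes.

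Among the genes of heme and iron turnover, *Hmox1* read 10.09, 10.38 and 10.54 (lowest, median and highest of 6) in asymptomatic spleens. FVB/N spleens read 8.66, 8.09 and 8.25 in mice 1 to 3, the order in which all FVB/N values in threes are given below. The groups were over 1 log2 unit apart at their nearest. Its fitted difference was 2.05 ± 0.35 (SE; adjusted p = 0.00675 in limma). *Slc40a1* read 9.46, 9.90 and 10.21 in asymptomatic spleens, against 8.26, 7.23 and 7.26 in FVB/N spleens. The fitted difference of 2.00 ± 0.60 did not pass (adjusted p = 0.195 in limma), and FVB/N mouse 1 lay apart from the other two. *Cd163* read 5.92, 6.21 and 6.83 in asymptomatic spleens, against 5.05, 5.37 and 5.24 in FVB/N spleens, and its fitted difference of 0.96 ± 0.42 did not pass.

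*Spic* read 8.90, 9.10 and 9.44 in asymptomatic spleens, against 7.53, 7.77 and 7.93 in FVB/N spleens. The groups were separate, but the fitted difference of 1.12 ± 0.37 did not pass (adjusted p = 0.273 in limma). The surface marker *Vcam1* read 9.32, 9.77 and 9.96 in asymptomatic spleens, against 7.46, 7.33 and 7.10 in FVB/N spleens. Its fitted difference of 2.61 ± 0.57 was the largest of the 10 (adjusted p = 0.0359 in limma). *Mrc1* read 8.12, 8.39 and 8.83 in asymptomatic spleens, against 5.98, 6.14 and 6.15 in FVB/N spleens. It was higher by 2.09 ± 0.41 (adjusted p = 0.0157 in limma).

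The 3 chains of C1q rose together. *C1qc* read 8.45, 8.74 and 8.98 in asymptomatic spleens, against 6.71, 6.94 and 6.74 in FVB/N spleens. *C1qb* read 8.56, 8.98 and 9.32 in asymptomatic spleens, against 7.54, 7.60 and 7.65 in FVB/N spleens. *C1qa* read 8.79, 8.97 and 9.82 in asymptomatic spleens, against 7.39, 7.64 and 7.73 in FVB/N spleens. No array of either group crossed into the other for any chain. The fitted differences were 1.94 ± 0.37 for *C1qc*, 1.5 ± 0.30 for *C1qb* and 1.25 ± 0.28 for *C1qa*, with adjusted p of 0.0138, 0.0189 and 0.0359 in limma. *Cd5l* kept to a narrow range in asymptomatic spleens, 6.51 to 6.68, against 5.79, 5.50 and 4.98 in FVB/N spleens, and its fitted difference of 1.36 ± 0.68 did not pass.

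Related genes did not pass as a group. Of 28 other complement genes and 34 other genes of heme and iron handling, none passed in limma in either direction, where 0.306% of all genes were called higher and 0.311% lower. The median fitted differences were 0.04 for the complement list, 0.07 for the heme and iron list and 0.02 for all genes. Of 41 genes in a general macrophage list, 2 passed, both higher, and the list's median was 0.30. They were *Mertk*, a receptor for the uptake of dying cells (1.79 ± 0.40, adjusted p = 0.0359 in limma), and *Clec1b*, which encodes the receptor CLEC-2 (1.44 ± 0.27, adjusted p = 0.0125 in limma). The mean level of that list was 8.02 to 8.21 in asymptomatic spleens and 7.68 to 7.79 in FVB/N spleens, with no overlap. Of the macrophage markers, *Csf1r* (1.04 ± 0.37), *Adgre1* (0.43 ± 0.33), *Cd68* (0.28 ± 0.27), *Fcgr1* (0.57 ± 0.23), *Aif1* (0.57 ± 0.16) and *Tyrobp* (-0.0018 ± 0.32) did not pass. Erythroid list means overlapped, at 7.47 to 8.67 in asymptomatic spleens and 7.56 to 8.88 in FVB/N spleens. Other lists did not overlap. The stroma list averaged 6.71 to 6.88 in asymptomatic spleens and 6.57 to 6.62 in FVB/N spleens, the other complement list 6.77 to 6.92 in asymptomatic and 6.69 to 6.76 in FVB/N spleens, and the adipose and muscle list 6.14 to 6.25 in asymptomatic and 6.03 to 6.08 in FVB/N spleens. The part of these markers in the members' values was not tested.

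The direction held for all 10 members in every alternative fitted, but the number of calls varied. Without surrogate variables none of the 10 passed in limma, with differences of group means of 1.04 to 2.43 and 9 at an unadjusted p under 0.05, where 0.0351% of all genes were called higher. None passed when the near-identical spleen arrays were averaged (8 at an unadjusted p under 0.05), 1 passed within batch A, and 9 passed when spleen arrays alone were fitted. Leaving out FVB/N mouse 3 left 0 calls, FVB/N mouse 2 left 1 and asymptomatic mouse 3 left 3. Of 28 alternatives, *Hmox1* was called in 22 (adjusted p in limma from 1.13e-05 to 0.229), *Mrc1* in 21 (4.33e-06 to 0.9999), *C1qc* in 19 (5.18e-05 to 0.657), *C1qb* in 18 (1.96e-05 to 0.907), *Vcam1* in 16 (4.97e-06 to 0.615) and *C1qa* in 14 (0.00315 to 0.969).

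**Figure D2:**
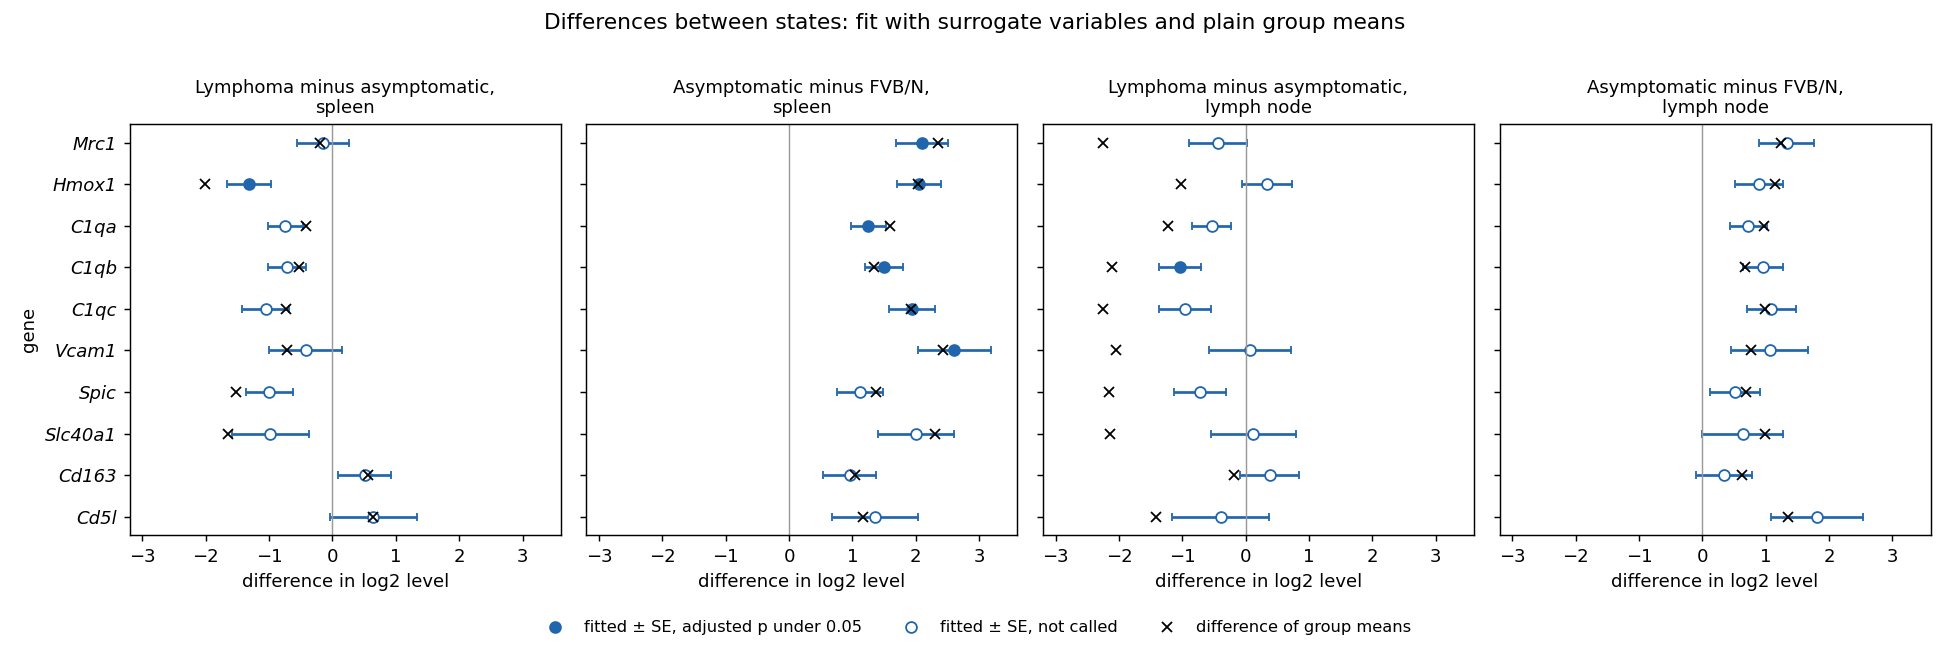
Difference in log2 level for each gene between states (horizontal axis), in spleen and in lymph node. Circles are fitted differences ± SE, filled where the adjusted p was under 0.05, and crosses are plain differences of group means. All asymptomatic minus FVB/N differences in spleen lie above 0 by both measures, whereas in lymph node the plain lymphoma minus asymptomatic differences reach -2.26 and the fitted ones no lower than -1.03.

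With lymphoma, *Hmox1* was the 1 member called in spleen, and it was lower. It read 7.18, 8.48 and 8.94 (lowest, median and highest of 6) in lymphoma spleens, against 10.09, 10.38 and 10.54 in asymptomatic spleens, with no overlap, a pattern shown in this direction by 4.96% of all genes. Its fitted difference was -1.32 ± 0.35 (adjusted p = 0.0117 in limma), and the difference of group means was -2.01. It was called in 26 of 29 alternatives and lower in all 29, with an adjusted p between 7.68e-09 and 0.112. The call was lost without asymptomatic mouse 4, without FVB/N mouse 3 and with the near-identical arrays averaged. Of the 10 members, 1 was called lower, against 7.25% of all genes, and none higher, against 8.58%, so the count was near the background. At an unadjusted p under 0.05 there were 5. The median fitted difference was -0.73 for the members and -0.03 for all genes.

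The other members gave smaller fitted differences. They ran from -1.06 ± 0.37 for *C1qc* (adjusted p = 0.0569 in limma) and -0.996 ± 0.37 for *Spic* (adjusted p = 0.0765 in limma) to 0.64 ± 0.69 for *Cd5l*. *Spic* was lower in all 29 alternatives and called in 15 of them, with an adjusted p in limma between 4.96e-07 and 0.473. Without surrogate variables, 2 members were called lower, against 8.17% of all genes. Without lymphoma mouse 4, 5 were called lower (*Hmox1*, *C1qa*, *C1qb*, *C1qc* and *Spic*), and 5 without lymphoma mouse 6. With spleen arrays alone, 8 were called lower and 1 higher.

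The lymphoma spleens differed among themselves by batch. In 8 members (all but *Cd163* and *Cd5l*) every batch A lymphoma spleen was above every batch B one, against 17.5% of all genes. Asymptomatic spleens also differed by batch. There *C1qb* and *Vcam1* were higher in batch A without overlap, against 33.2% of all genes. *C1qa* and *Spic* were lower in batch A asymptomatic spleens without overlap, against 14.1%. *Vcam1* read 10.32, 10.67 and 10.003 in lymphoma mice 1 to 3 and 6.79, 7.88 and 8.41 in lymphoma mice 4 to 6, against 9.32 to 9.96 in asymptomatic spleens. *C1qc* read 8.98, 9.72 and 8.65 in lymphoma mice 1 to 3 and 6.31, 6.54 and 7.76 in lymphoma mice 4 to 6, against 8.45 to 8.98 in asymptomatic spleens. *Vcam1* thus lay above the asymptomatic spleens in batch A and below them in batch B, whereas *Hmox1*, at 8.91, 8.94 and 8.63 in lymphoma mice 1 to 3 and 7.18, 8.33 and 8.17 in lymphoma mice 4 to 6, lay below them in both.

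Within batch A, 5 members (*Mrc1*, *C1qa*, *Vcam1*, *Cd163* and *Cd5l*) were higher in all 3 lymphoma spleens than in all 3 asymptomatic ones, against 17.6% of all genes, and *Hmox1* was lower, against 23.6%. Within batch B, 8 members were lower without overlap (all but *Cd163* and *Cd5l*), against 14.7% of all genes. For *Spic* the difference of group means was -0.61 ± 0.51 in batch A and -2.43 ± 0.51 in batch B (SE, 3 arrays against 3). For *C1qc* it was 0.35 ± 0.53 in batch A and -1.83 ± 0.53 in batch B. The change in batch A minus that in batch B was tested in limma, an alternative chosen after seeing the data. No member passed, against 0.155% of all genes called, and 5 members had an unadjusted p under 0.05, with the lowest adjusted p in limma 0.297, for *C1qa* (1.62 ± 0.55).

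**Figure D3:**
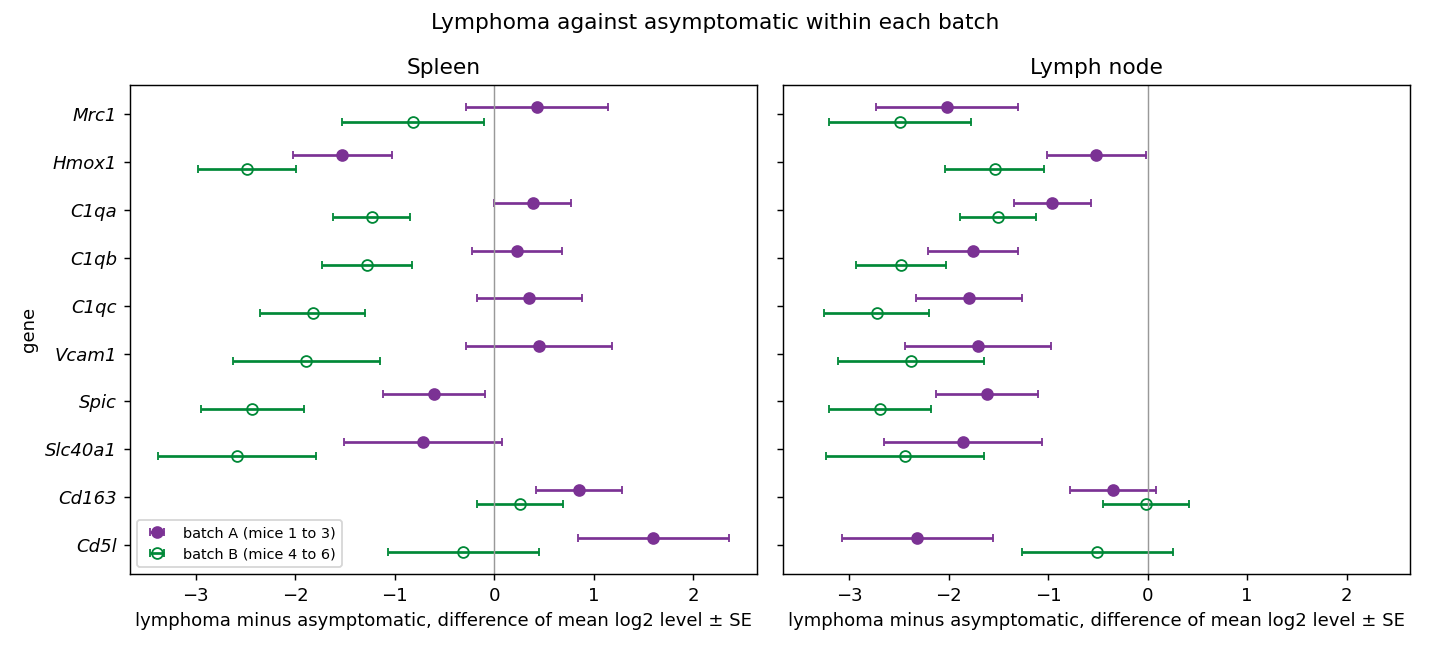
Lymphoma minus asymptomatic difference of mean log2 level ± SE (horizontal axis) for each gene, in spleen on the left and lymph node on the right, within batch A (mice 1 to 3) and batch B (mice 4 to 6), 3 arrays against 3. In spleen, Hmox1 lies below 0 in both batches (-1.53 and -2.48), while the C1q genes lie above 0 in batch A and at -1.23 or lower in batch B.

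Some gene lists separated by this split and others overlapped. The general macrophage list averaged 7.90 to 8.16 in batch A lymphoma spleens and 6.98 to 7.93 in batch B ones. Neutrophil markers averaged 8.78 to 9.82 in batch A lymphoma spleens and 6.75 to 8.76 in batch B ones, and erythroid markers 8.13 to 9.96 in batch A and 6.19 to 8.73 in batch B. Thus the macrophage and erythroid lists overlapped, as did the endothelium and T lineage lists. The stroma list separated, at 6.47 to 6.62 in batch A and 6.10 to 6.44 in batch B. So did the heme and iron list, at 8.02 to 8.27 in batch A and 7.71 to 7.90 in batch B. The neutrophil list separated narrowly, by the values above. In asymptomatic spleens the heme and iron list also separated, at 7.85 to 7.90 in batch A and 7.70 to 7.78 in batch B. The erythroid list separated there too, at 8.56 to 8.67 in batch A and 7.47 to 7.92 in batch B, while the stroma list overlapped. Markers of early B precursors were high in all lymphoma spleens, at 9.30 to 10.14, against 7.79 to 8.14 in asymptomatic spleens, and T lineage markers low, at 6.11 to 7.36, against 9.51 to 9.85. The part of these lists in the members' values was not tested.

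The spread between lymphoma spleens was wide. The SD was larger in lymphoma than in asymptomatic spleens for 10 of 10 members, against 65.7% of all genes, and for 10 of 10 without lymphoma mouse 4. The asymptomatic SD may be too small, because it includes the near-identical arrays of mice 1 to 3. The lymphoma SD includes the batch split described above. The 10 members were read on the same arrays, so they are not 10 separate observations. *Cd5l* had an SD of 1.44 in lymphoma spleens and 0.0611 in asymptomatic spleens. *C1qc* had an SD of 1.37 in lymphoma spleens and 0.184 in asymptomatic spleens. For all genes the median SD was 0.245 in lymphoma spleens and 0.191 in asymptomatic spleens. The *Cd5l* level was 8.32, 8.77, 7.51 and 7.81 in lymphoma mice 1, 2, 3 and 6, above all asymptomatic spleens, while lymphoma mice 4 and 5 had 4.98 and 6.04, below all of them.

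Of 34 other genes of heme and iron handling, 5 rose and 1 fell with lymphoma in spleen, with a median of 0.02. Of all genes, 8.58% were called higher and 7.25% lower (15.8% in either direction), with a median of -0.03. The list's count in either direction was thus near the background. *Tfrc*, the transferrin receptor, rose by 2.08 ± 0.26 (adjusted p = 3.35e-06 in limma). *Gclc*, a glutathione synthesis enzyme, rose by 1.23 ± 0.15, *Steap3*, a ferrireductase of erythroid cells, by 0.95 ± 0.14 and *Ireb2*, an iron sensor, by 0.44 ± 0.10. The others, *Tfr2* (higher) and *Ftl1* (lower), are named after their values were seen. Of 28 other complement genes, 3 fell and none rose, with a median of -0.07. They were *Cr2*, the complement receptor CD21 of B cells and follicular dendritic cells (-2.83 ± 0.33), *Cd55*, an inhibitor of complement on cell surfaces (-1.24 ± 0.28), and *C3ar1*, the receptor for C3a (-1.15 ± 0.24). Of 41 macrophage genes, *Aif1* (-0.72 ± 0.16), *Ms4a7* (-0.81 ± 0.25) and *Msr1*, a scavenger receptor (-0.98 ± 0.31), fell and *Fcgr3*, a receptor for IgG, rose (1.40 ± 0.39 in the fit, 0.59 between group means). The median of that list was -0.23.

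In lymphoma against FVB/N spleens, 2 members were higher. *Mrc1* read 7.44, 8.13 and 9.34 (lowest, median and highest of 6) in lymphoma spleens, against 5.98, 6.14 and 6.15 in FVB/N spleens, with a fitted difference of 1.94 ± 0.50 (adjusted p = 0.0112 in limma). *Vcam1* read 6.79, 9.21 and 10.67 in lymphoma spleens, against 7.46, 7.33 and 7.10 in FVB/N spleens, so the groups overlapped through lymphoma mouse 4, with a fitted difference of 2.19 ± 0.71 (adjusted p = 0.0453 in limma). Of all genes, 7.1% were called higher. Without overlap, *Mrc1*, *C1qa* and *Cd163* were higher in lymphoma than in FVB/N spleens, against 8.38% of all genes. *Hmox1* averaged 8.36 ± 0.66 in 6 lymphoma spleens and 8.33 ± 0.29 in 3 FVB/N spleens (SD), and its fitted difference of 0.73 ± 0.43 did not pass. This comparison shares its arrays with the other 2 comparisons of spleens. *Mrc1* was called in 25 of 28 alternatives (adjusted p between 3.92e-07 and 0.0859 in limma) and *Vcam1* in 15 of 28 (3.31e-06 to 0.164). No member passed without lymphoma mouse 2, and 7 passed without lymphoma mouse 5 and within batch A.

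In lymph node, lymphoma arrays had lower group means than asymptomatic ones for all 10 members. *C1qc* read 6.74, 7.19 and 8.29 (lowest, median and highest of 6) in lymphoma nodes, against 7.52, 9.97 and 10.19 in asymptomatic nodes, a difference of means of -2.26. *Mrc1* read 6.31, 7.14 and 8.21 in lymphoma nodes, against 6.44, 9.93 and 10.23 in asymptomatic nodes, a difference of means of -2.25. Both overlapped only through asymptomatic mouse 1, whose values lay within the lymphoma range. The differences of means were -2.15 for *Spic*, -2.15 for *Slc40a1*, -2.12 for *C1qb* and -2.04 for *Vcam1*.

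The fitted differences in node depended on the surrogate variables. With them, *C1qb* was the 1 member called (-1.03 ± 0.34, adjusted p = 0.0265 in limma), against 12.5% of all genes called lower and 11.6% higher, so the count was near the background. Without them, 8 members were called lower, against 14.4% of all genes. The fitted differences of *Hmox1* (0.33 ± 0.39), *Vcam1* (0.07 ± 0.64), *Slc40a1* (0.12 ± 0.67) and *Cd163* (0.38 ± 0.47) had the other sign from their differences of group means. The call of *C1qb* held in 10 of 27 alternatives, all 27 lower, with an adjusted p between 4.41e-05 and 0.343. It was lost on leaving out any 1 mouse other than asymptomatic mouse 1, asymptomatic mouse 3 or lymphoma mouse 4, and without the node array of asymptomatic mouse 6.

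Within batch B, 8 members (all but *Cd163* and *Cd5l*) were lower without overlap in lymphoma than in asymptomatic nodes, against 15.2% of all genes. Within batch A this held for *Spic* alone, against 13.9% of all genes. *Spic* read 6.83, 6.09 and 5.92 in lymphoma nodes 1 to 3, against 7.12, 8.38 and 8.18 in asymptomatic nodes 1 to 3. In batch B it read 6.83, 7.72 and 6.02 in lymphoma nodes 4 to 6, against 9.20, 9.12 and 10.33 in asymptomatic nodes 4 to 6. In node, both batches gave differences of group means below 0 for all 10 members.

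**Figure D4:**
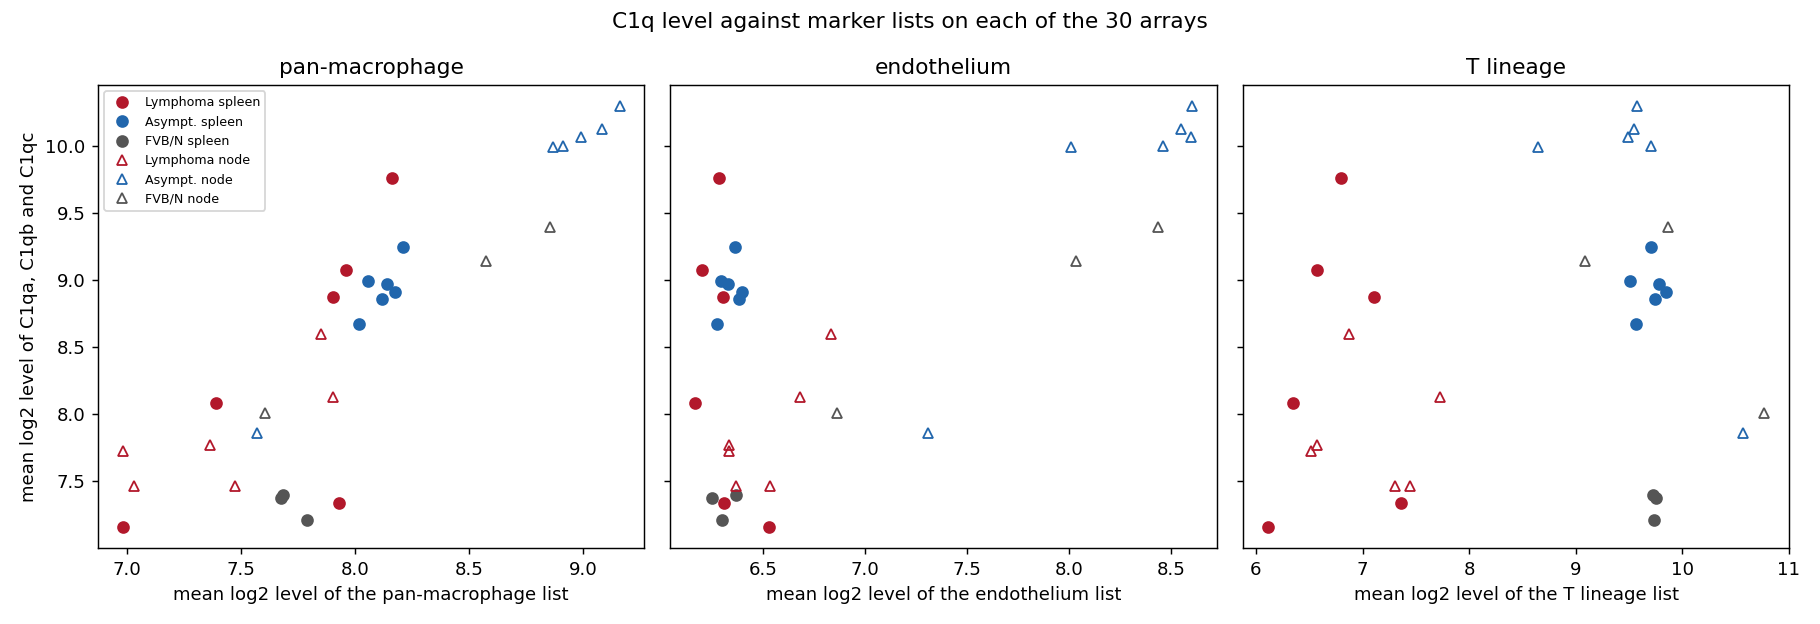
Mean log2 level of C1qa, C1qb and C1qc (vertical axis) against the mean log2 level of the general macrophage, endothelium and T lineage lists (horizontal axes) on each of the 30 arrays, with spleens as filled circles and nodes as open triangles. The 7 asymptomatic and FVB/N nodes with an endothelium mean of 8.01 or more are also the 7 nodes with a C1q mean of 9.15 or more, and the nodes of asymptomatic mouse 1 and FVB/N mouse 1 lie low on both.

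Markers of other tissue components moved with the node values. The C1q mean was 7.46 to 8.60 in lymphoma nodes, against 7.86 in asymptomatic node 1 and 9.99 to 10.30 in asymptomatic nodes 2 to 6. The endothelium list averaged 6.33 to 6.83 in lymphoma nodes, against 7.31 to 8.60 in asymptomatic nodes, and the general macrophage list 6.98 to 7.90 in lymphoma nodes, against 7.57 to 9.16 in asymptomatic nodes. The salivary gland list reached 6.86 in lymphoma nodes, against 8.52 in asymptomatic nodes, and the adipose and muscle list 6.34, against 9.91. Their part in the members' values was not tested.

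Other complement genes were called in lymphoma nodes: of 28, 8 fell and 1 rose, with a median of -0.22, where 12.5% of all genes were called lower and 11.6% higher with a median of -0.02. *Cr2* fell by 1.99 ± 0.37, *C7*, a component of the membrane attack complex, by 1.89 ± 0.35, *Cd55* by 1.31 ± 0.31 and *C2*, a part of the classical C3 convertase, by 1.06 ± 0.26 (fitted log2 differences). Of 34 genes of heme and iron handling, 5 rose and 6 fell, with a median of -0.11. *Tfrc* (2.40 ± 0.29), *Steap3* (1.24 ± 0.15), *Gclc* (1.30 ± 0.17) and *Ireb2* (0.62 ± 0.11) were among those that rose. Of 41 macrophage genes, 13 fell and 5 rose, with a median of -0.34. *Timd4*, a receptor for phosphatidylserine on resident macrophages, fell by 2.19 ± 0.42, *Lyve1*, a hyaluronan receptor of lymphatic endothelium and some macrophages, by 2.29 ± 0.42 and *Aif1* by 1.13 ± 0.18, while *Spi1*, which encodes PU.1, rose by 1.10 ± 0.20 in the fit and was 0.37 higher between group means.

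Between asymptomatic and FVB/N nodes no member passed in limma, against 1.94% of all genes called, and 6 had an unadjusted p under 0.05. All 10 fitted differences were above 0. They were 0.34 ± 0.45 for *Cd163*, 0.90 ± 0.37 for *Hmox1*, 0.64 ± 0.64 for *Slc40a1*, 0.52 ± 0.40 for *Spic*, 1.06 ± 0.61 for *Vcam1*, 1.33 ± 0.43 for *Mrc1* and 1.81 ± 0.73 for *Cd5l*. The C1q genes lay between, at 0.72 ± 0.29 for *C1qa*, 0.95 ± 0.32 for *C1qb* and 1.09 ± 0.39 for *C1qc*. Mouse 1 of both states was low. *Mrc1* read 6.44 in the node of asymptomatic mouse 1 and 9.75 to 10.23 in those of the other 5 asymptomatic mice, against 6.24, 8.69 and 9.52 in FVB/N nodes. Without asymptomatic mouse 1, 3 members were called higher. In this comparison 1 of 28 other complement genes rose, *Cd59a*, an inhibitor of the membrane attack complex (2.11 ± 0.45), and none fell. Of 34 heme and iron genes 3 rose, *Hp* (2.10 ± 0.42), which encodes haptoglobin, *Aco1* (0.57 ± 0.12) and *Fth1*, the ferritin heavy chain (0.51 ± 0.12). Of 41 macrophage genes 3 rose, *Pparg* (1.63 ± 0.24), *Clec1b* (1.56 ± 0.29) and *Folr2* (1.52 ± 0.39). The adipose and muscle list reached 9.91 in asymptomatic nodes and 8.58 in FVB/N nodes. The salivary gland list went the other way, reaching 8.52 in asymptomatic nodes and 9.97 in FVB/N nodes. The part of these lists in the members' values was not tested. Between lymphoma and FVB/N nodes no member passed in limma, against 16.6% of all genes, and 1 had an unadjusted p under 0.05, *Hmox1* (1.23 ± 0.47 in the fit, 0.12 between group means, adjusted p = 0.0802 in limma). The other fitted differences ran from -0.20 ± 0.50 for *Spic* to 1.42 ± 0.91 for *Cd5l*, and the group means were lower in lymphoma nodes for 8 members.

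Spleen and node of the same animals were compared within each state. In asymptomatic mice, *Hmox1* was higher in spleen by 2.02 ± 0.40 (adjusted p = 0.0041 in limma) and *Slc40a1* by 3.05 ± 0.69 (adjusted p = 0.00981 in limma), against 2.26% of all genes called higher. Fit and group means differed in sign for *Mrc1* (0.68 ± 0.46 in the fit), *C1qa* (0.32 ± 0.31), *C1qb* (0.18 ± 0.34), *C1qc* (0.54 ± 0.42) and *Cd5l* (0.80 ± 0.78). None of these passed, and their group means were lower in spleen, by differences from -0.95 for *Mrc1* to -0.21 for *Cd5l*. *Slc40a1* read 9.46, 9.90 and 10.21 (lowest, median and highest of 6) in asymptomatic spleens, against 5.51, 8.11 and 11.32 in asymptomatic nodes. The highest node value was that of mouse 6, and the other 5 nodes lay below all spleens. *Hmox1* in the node of mouse 6 was 11.25, with 7.72 to 8.80 in the other 5. With mouse as a block and no surrogate variables, *Hmox1* was higher by 1.45 (adjusted p = 0.016 in limma) and *Slc40a1* by 1.70, which did not pass (adjusted p = 0.119 in limma). Over the alternatives, the adjusted p of *Hmox1* ran from 0.000203 to 0.442 and that of *Slc40a1* from 0.000462 to 0.661, and 5 members were called without lymphoma mouse 4.

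The batches of asymptomatic mice differed in which members separated the tissues. In batch A, *Hmox1*, *Spic*, *Slc40a1* and *Cd163* were higher in all spleens than in all nodes, against 15.6% of all genes. In batch B, *Mrc1* and the 3 C1q genes were lower in all spleens than in all nodes, against 13.3%. In FVB/N mice *Mrc1*, *C1qa*, *C1qb* and *C1qc* were also lower in all spleens than in all nodes, against 9.44% of all genes. *C1qb* read 7.54, 7.60 and 7.65 in FVB/N spleens, against 8.23, 9.40 and 9.99 in FVB/N nodes. No member was called in FVB/N mice in limma with surrogate variables, against 4.27% of all genes, and 1 had an unadjusted p under 0.05. With mouse as a block and no surrogate variables, *C1qb* was called lower in FVB/N spleen (-1.61, adjusted p = 0.0472 in limma, with 0.0347 to 0.942 over the alternatives).

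In lymphoma mice no member was called between spleen and node in limma, against 0.0552% of all genes (11 genes), and 7 had an unadjusted p under 0.05. In batch A, 9 members (all but *Hmox1*) were higher in all 3 lymphoma spleens than in all 3 lymphoma nodes, against 10.7% of all genes. *Slc40a1* read 8.87, 9.87 and 8.74 in the spleens of lymphoma mice 1 to 3, against 6.01, 5.06 and 4.91 in their nodes. In lymphoma mouse 4 the order was turned, with 5.77 in spleen and 7.10 in node. Without that mouse, 3 members were called higher in spleen. Whether the lymphoma change differed between the tissues was tested as an interaction in limma. No member passed, against 0.572% of all genes, and 1 had an unadjusted p under 0.05, *Hmox1* (-1.65 ± 0.49, adjusted p = 0.132 in limma). It was called in 3 of 27 alternatives, those without asymptomatic mouse 5, without asymptomatic mouse 6 and without the node array of asymptomatic mouse 6, with an adjusted p between 0.0156 and 0.784 over all of them. With mouse as a random block and no surrogate variables, 2 members were called, both with a positive interaction: *Mrc1* (2.06 ± 0.64, adjusted p = 0.0468 in limma) and *C1qb* (1.59 ± 0.49, adjusted p = 0.042 in limma). *Hmox1* was at -0.98 ± 0.49 there and did not pass.

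Spleen and node levels of the same mouse were also set against each other. Over 20 relations (10 members in 6 lymphoma mice and in 6 asymptomatic mice), no Pearson or Spearman correlation passed after Benjamini-Hochberg adjustment of exact permutation p-values (two-sided, 720 possible pairings of the mice). The lowest adjusted p was 0.574 for Pearson's r and 0.711 for Spearman's rho. The 1 relation with an unadjusted p under 0.05 was *Cd5l* in lymphoma mice, with r = -0.804 (exact permutation p = 0.0472) and rho = -0.60 (exact permutation p = 0.242). Without the 2 mice farthest from the median spleen level, r was -0.03, so the relation rested on those mice. Each relation held 3 mice of each batch, too few for a value within batches.

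The genes whose pattern over the 30 arrays was most like that of the C1q mean were *Mertk* (Pearson r = 0.961), *Axl* (0.950), *Itga9* (0.949), *Serpinb6a* (0.934) and *Igf1* (0.932). *Mertk* and *Axl* encode related receptors that recognise dying cells, *Itga9* an integrin, *Serpinb6a* a protease inhibitor and *Igf1* a growth factor. Those most like *Spic* were *Abcc3* (0.907), a transporter of the ABC family, *Il18* (0.903), a cytokine, *Gbp8* (0.898), *Cadm1* (0.891), an adhesion molecule, and *Lair1* (0.886), an inhibitory collagen receptor. The arrays share tissue, state and batch, so these values describe likeness over this set of arrays.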

How the data were processed

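The values are log2 expression levels deposited by the authors, who, as the design text of the series states, ran fRMA (a robust multiarray analysis with frozen reference parameters) on the Affymetrix Mouse Gene ST arrays. No counts exist for arrays, and the number of arrays limits the precision. The table held 35557 probe sets, 1 of them without values. Of those used, 21789 carried 1 gene symbol in the platform annotation, 1621 several and 12146 were not listed there. Symbols were updated through Entrez IDs for 21698 probe sets. Where a gene had several probe sets (999 genes), the one with the highest mean was kept, which gave 19938 genes.

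limma 3.58.1 in R 4.3.3 was fitted to all 30 arrays with the 6 groups and 6 surrogate variables, which were estimated with 20 permutations and a p limit of 0.1, after the authors' design text. A gene was called where its p, adjusted over all 19938 genes (Benjamini-Hochberg), was under 0.05. The SE given with a fitted difference is that of the fit. The fitting steps were tested on simulated data, with changes placed in lymphoma spleens only. The simulated residual noise was independent between arrays, so that test does not bear on pairing by mouse or on near-identical arrays. Alternatives left out the surrogate variables, changed the covariates, the arrays, the probe set rule, a filter on low levels and the normalization, or left out each mouse in turn. The members and the gene lists were chosen with earlier results of these data known. By the rule for named genes, members could be named in every comparison, as could up to 4 called genes per comparison with the smallest adjusted p from each of the 3 related lists, the 5 genes most like the C1q mean and the 5 most like *Spic*. In some comparisons, members that did not pass are given by their counts and range. Promoter windows are RefSeq's (GRCm38.p6). The build behind the deposited table is not given in the sources used here.

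Spleen and node came from the same animal. The fit described above has no term for the mouse, which entered only the alternatives named as having mouse as a block or as a random block. Same-numbered mice of different states are different animals. Their deviations from the group means correlated over 0.1 in all 6 pairs of lymphoma and asymptomatic spleens (r = 0.228 to 0.497), where equal numbers also mean an equal batch, and in 4 of 6 pairs of nodes. With mouse number as a block, 1 member was called in the spleens and 0 in the nodes.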

Additional observations from a re-analysis of the deposited data

Results flagged for a closer look

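Of 40 sets of 6 arrays tested for a single far value (10 members in lymphoma and asymptomatic spleens and nodes), 7 held one. Chance gives about 1 in 20 for a single set, but the members share arrays, so the sets are not independent. All 7 fell on the nodes of asymptomatic mice 1 and 6 and of lymphoma mouse 4. In asymptomatic nodes mouse 1 was far below the other 5 mice for 4 members. *Mrc1* read 6.44 there and 9.75 to 10.23 in the others, *C1qa* 7.79 and 9.88 to 10.30, *C1qb* 8.29 and 9.81 to 10.62, and *C1qc* 7.52 and 9.86 to 10.19. The endothelium list mean was 7.31 in that node and 8.01 to 8.60 in the other 5, and its part in these values was not tested.

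*Hmox1* read 11.25 in the node of asymptomatic mouse 6 and 7.72 to 8.80 in the others. In that node the erythroid list averaged 9.48 and the exocrine pancreas list 13.31, and their part was not tested. In the node of asymptomatic mouse 5 the exocrine pancreas list averaged 12.00 and *Hmox1* read 8.65. In lymphoma nodes mouse 4 stood above the other 5 for 2 members. *Cd163* read 7.69 there and 5.09 to 5.97 in the others, and *Cd5l* 6.31 and 4.96 to 5.46.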

How the results depend on the processing

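Of single member differences over all alternatives, 2214 kept their sign and side of the threshold, 237 changed sign with no call gained or lost, 134 gained and 103 lost the call with the same sign, and 12 changed sign with a call. Without surrogate variables the lymphoma minus asymptomatic difference in node was -1.03 for *Hmox1*, -2.04 for *Vcam1* and -2.15 for *Slc40a1*, and the same with batch as a term. It was -2.04 for *Vcam1* and -2.15 for *Slc40a1* with mouse as a random block, and -2.38 for *Vcam1* within batch B. In asymptomatic mice the spleen minus node difference within batch B was -1.40 for *Mrc1*, -1.23 for *C1qb* and -1.24 for *C1qc*. Members called are given next, with the value reported above in brackets.

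For lymphoma against asymptomatic spleens (1), 2 were called without surrogate variables, with batch as a term, with batch and the neighbouring-tissue lists, with mouse as a random block, with the mean of probe sets and within batch A. There were 6 with the filter on low levels and 5 within batch B. For the nodes (1), 8 were called without surrogate variables and with batch as a term, 7 with the random block, 5 with the filter, 3 within batch A and 6 within batch B. There were 0 with the neighbouring-tissue lists, with mouse number as a block and with quantile normalization. For asymptomatic against FVB/N spleens (6), 0 were called without surrogate variables, with batch as a term and with the random block, and 1 with the neighbouring-tissue lists and within batch A. For lymphoma against FVB/N spleens (2), 7 were called with the neighbouring-tissue lists and within batch A, 0 with the number block and 1 with the filter. For those nodes (0), 1 was called without surrogate variables, with the random block and within batch A.

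Between spleen and node, 3 were called in lymphoma (0) within batch A. In asymptomatic mice (2), 1 was called without surrogate variables, with batch as a term, with mouse as a block and as a random block, and 0 with the neighbouring-tissue lists. In FVB/N (0), 1 was called with mouse as a block and 2 with the random block. For the interaction (0), 2 were called with the random block.

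Alternatives chosen after seeing the data gave these counts. With spleen arrays alone there were 9, 9 and 7 (lymphoma against asymptomatic, asymptomatic against FVB/N, lymphoma against FVB/N), and without surrogate variables 3, 2 and 4. Without the node array of asymptomatic mouse 6, the counts were 3 and 0 for lymphoma against asymptomatic spleens and nodes, 4 and 1 for lymphoma against FVB/N spleens and nodes, and 1 for the interaction. With the near-identical spleen arrays averaged, 0 were called in lymphoma against asymptomatic spleens and nodes, asymptomatic against FVB/N spleens and lymphoma against FVB/N spleens.

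Leaving out 1 mouse at a time gave 0 to 7 for asymptomatic and for lymphoma against FVB/N spleens, 0 to 3 and 0 to 1 for those nodes, 0 to 5 and 0 to 3 for lymphoma against asymptomatic spleens and nodes, 0 to 3, 1 to 5 and 0 to 0 between tissues in lymphoma, asymptomatic and FVB/N mice, and 0 to 1 for the interaction. The cause of these shifts was not tested. With 3 FVB/N mice, all in batch A, batch B gives no value for any comparison with FVB/N, and *Cd163*, with all group means below the median gene mean of 7.04, was left out by the filter on low levels.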

Other observations

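Related genes also differed in comparisons not described above. In lymphoma against FVB/N spleens, 6 of 34 heme and iron genes rose and none fell, where 1415 of all 19938 genes were called higher and 1047 lower. They were led by *Gclc* (1.27 ± 0.18), *Steap3* (1.04 ± 0.17), *Tfrc* (1.82 ± 0.31) and *Tfr2*, a second transferrin receptor (1.10 ± 0.27). Of 28 other complement genes, *Cr2* (-3.12 ± 0.40), *Cd55* (-1.39 ± 0.34) and *C3ar1* (-1.06 ± 0.30) fell and *Cfp*, which encodes properdin, rose (1.48 ± 0.44 in the fit, 0.14 between group means). Of 41 macrophage genes, *Fcgr3* (2.17 ± 0.47) and *Itgad* (0.69 ± 0.18) rose and *Ms4a7* fell (-1.12 ± 0.30).

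In lymphoma against FVB/N nodes, 1713 of all genes were called higher and 1591 lower. Of the heme and iron genes 8 rose and 1 fell, with *Steap3* (1.46 ± 0.18), *Gclc* (1.27 ± 0.20), *Tfrc* (2.18 ± 0.34) and *Slc48a1*, a heme transporter (1.23 ± 0.30 in the fit, -0.33 between group means), leading. Of the complement genes 3 rose and 2 fell. *Cr2* (-1.75 ± 0.44) and *C7* (-1.43 ± 0.42) fell, *Itgam* rose (1.71 ± 0.44), and *Cfp* differed in sign between the fit (2.04 ± 0.47) and the group means (-0.37). Of the macrophage genes 7 rose and 3 fell, led by *Spi1* (1.39 ± 0.24), *Itgad* (0.93 ± 0.20), *Fcgr3* (2.30 ± 0.51) and *Cd14* (1.31 ± 0.29), with 0.58, 0.36, 0.70 and 0.17 between group means.

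In asymptomatic mice, 7 of 28 other complement genes were lower in spleen than in node and none higher, where 670 of all 19938 genes were called lower and 450 higher. They were led by *Serping1*, the C1 inhibitor (-2.61 ± 0.47), *C7* (-2.0 ± 0.36), *Cfb*, factor B of the alternative pathway (-2.23 ± 0.42), and *Clu*, clusterin (-2.31 ± 0.46). In the same comparison 6 of 41 macrophage genes were lower in spleen and 4 higher, with *Lyve1* (-2.87 ± 0.42), *Siglec1*, a sialic acid receptor of lymph node and splenic marginal macrophages (-2.32 ± 0.42), *Marco* (-1.83 ± 0.36) and *Stab1* (-1.26 ± 0.22) among those lower. The macrophage marker *Adgre1* was among the 4 higher in spleen (1.69 ± 0.38 in the fit, 0.69 between group means). Of the heme and iron genes 1 was lower, *Cp*, which encodes ceruloplasmin (-2.29 ± 0.38), and none higher. The stroma list averaged 6.71 to 6.88 in asymptomatic spleens and 8.19 to 9.56 in asymptomatic nodes, and its part was not tested.

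In FVB/N mice, 424 of all genes were called higher in spleen than in node and 427 lower. Of the complement genes 3 were higher and 2 lower, led by *C5ar1* (0.94 ± 0.21), *Serping1* (-2.40 ± 0.54), *Clu* (-2.15 ± 0.54) and *Cr2* (1.59 ± 0.43). Of the heme and iron genes *Hp* was higher (2.68 ± 0.52 in the fit, 1.08 between group means) and *Slc39a14* lower (-0.66 ± 0.18 in the fit, -0.41 between group means). Of the macrophage genes *Spi1* (1.28 ± 0.24), *Adgre1* (1.79 ± 0.44) and *Lgmn* (1.27 ± 0.32) were higher and *Lyve1* (-2.31 ± 0.49) lower. Between group means the differences were 0.83, 0.68, 0.43 and -3.50 in that order.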
